A study of Mus musculus with 4 samples.

Results

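Histone methylation enzymes are the proteins that place methyl groups on the lysine and arginine residues of histones, or remove them from lysines. They are described here as messenger RNA levels in embryonic stem cells of the mouse, which are pluripotent and come from the early embryo. The members were taken by gene name: every gene whose symbol begins with Kdm, Kmt, Setd, Setdb, Suv39h, Ehmt, Nsd or Prmt followed by a digit and that had a probe set naming no other gene. This gave 50 genes of 18193 in all, covered by 141 of 34945 probe sets with a single symbol, and the brightest probe set represented each gene. The cells were of 2 genotypes, Suz12KO and wild type (WT), with 2 Affymetrix arrays each. Suz12KO cells carry a knockout of Suz12, which encodes an essential component of the H3K27 methylating complex PRC2. According to the labels, RNA was taken separately from 3 clones of each genotype and then mixed in equal parts into a single pool, and no other allele, treatment, strain, sex or passage is given. Whether both arrays of a genotype hold the same pool is not stated, so the p-values below measure spread between arrays, which may be technical.

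Lysine methyltransferases mostly carry a SET domain and take the methyl group from S-adenosylmethionine. H3K4 methylation marks promoters and enhancers, H3K36 methylation marks transcribed gene bodies, H3K9 methylation marks heterochromatin and silent repeats, H3K27 methylation is the product of PRC2, and H4K20 methylation is tied to the cell cycle and compact chromatin. Demethylases reverse these marks, either through a flavin-dependent amine oxidase reaction (Kdm1a, Kdm1b) or through an iron- and oxoglutarate-dependent Jumonji domain (the other Kdm families). Embryonic stem cells lean on several of these enzymes, among them Setdb1 and Kdm1a. Some names in the group are wider than the label: Setd3 methylates a histidine of actin, Setd6 acts largely on nonhistone proteins, and Prmt enzymes have many nonhistone substrates.

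The deposited values are probe set signals, intensities on a linear scale, and the number of arrays limits their precision. Suz12 itself read 217 and 369 in Suz12KO, against 1097 and 1094 in WT, or -1.89 on the log2 scale (SE 0.27, limma adjusted p = 0.00213). The Suz12KO signals stayed above the spike range defined below. Averaging the Suz12 probe sets gave -1.67 (limma adjusted p = 0.0602). That mean includes a dim probe set at 51.1 and 56.1 in Suz12KO and 55.8 and 56.1 in WT. Arrays of a genotype correlated at 0.934 (Suz12KO) and 0.948 (WT) over the log2 values of the tested genes, and arrays of different genotypes at 0.905 to 0.914. The brightest of 27 spike probe sets that target bacterial RNA was 195 and 174 in Suz12KO and 141 and 191 in WT. Signals at or under these values are called within the spike range here. Among all 12735 tested genes, 4.48% were called higher and 5.50% lower by the test described below. Of 10 embryonic stem cell markers 9 rose and 0 fell, with summed signals of 127020 and 130767 in Suz12KO, against 75875 and 75425 in WT. Of 17 measured fibroblast markers 12 were tested, 9 fell and 0 rose, and the summed signals of the 17 were 33822 and 33592 in Suz12KO, against 106491 and 109023 in WT. In both genotypes these sums rested mostly on Acta2, Vim, Tagln and Fn1. In WT they read 33742 and 33855 (Acta2), 25142 and 26968 (Vim), 20226 and 21055 (Tagln), and 12917 and 12108 (Fn1). Both arrays lay within the spike range for 6 of these 17 markers in Suz12KO (Dcn, Fap, Lum, Pdgfra, Pdgfrb and Postn) and for 4 in WT (Dcn, Lum, Pdgfrb and Postn). The collagen gene Col1a1 of the same list read 435 and 448 in Suz12KO, against 2859 and 2599 in WT. Whether the cells present differed between the genotypes, and what part that had in any result below, was not tested. In bulk RNA, fewer cells of a type and less RNA per cell cannot be told apart.

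Of the 50 histone methylation enzyme genes, 48 had enough signal to be tested, and Kdm4d and Kdm5d did not. The demethylase genes Kdm3a and Kdm5b rose in Suz12KO. The methyltransferase genes Setd7, Kmt5a and Prmt2 and the H3K27 demethylase gene Kdm6b fell. The remaining 42 genes did not pass the test, with log2 fold changes between -0.78 and 0.82, and 36 of them lay within 0.5 of no change. Among all 12735 tested genes 4.48% were called higher, 5.50% lower and 9.97% in either direction, so the 6 calls among 48 members (12.5%) are near the share of all genes. A call is an adjusted p under 0.05 from limma, with Benjamini-Hochberg adjustment over all tested genes. The median log2 fold change was 0.034 over the members and 0.035 over all tested genes. In 15 members both Suz12KO arrays lay above both WT arrays, and in 10 both lay below, against 29.0% and 23.9% of all tested genes. Without the dependence of spread on signal level that the test assumes, limma called 0 members and 0 genes, although 7 members and 2332 genes had an unadjusted p under 0.05. After each array was centred on its median the median log2 fold change of all tested genes was -0.13, and 1 member was called higher and 7 lower (all genes, 294 higher and 1243 lower, in place of 570 and 700).

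**Figure D1:**
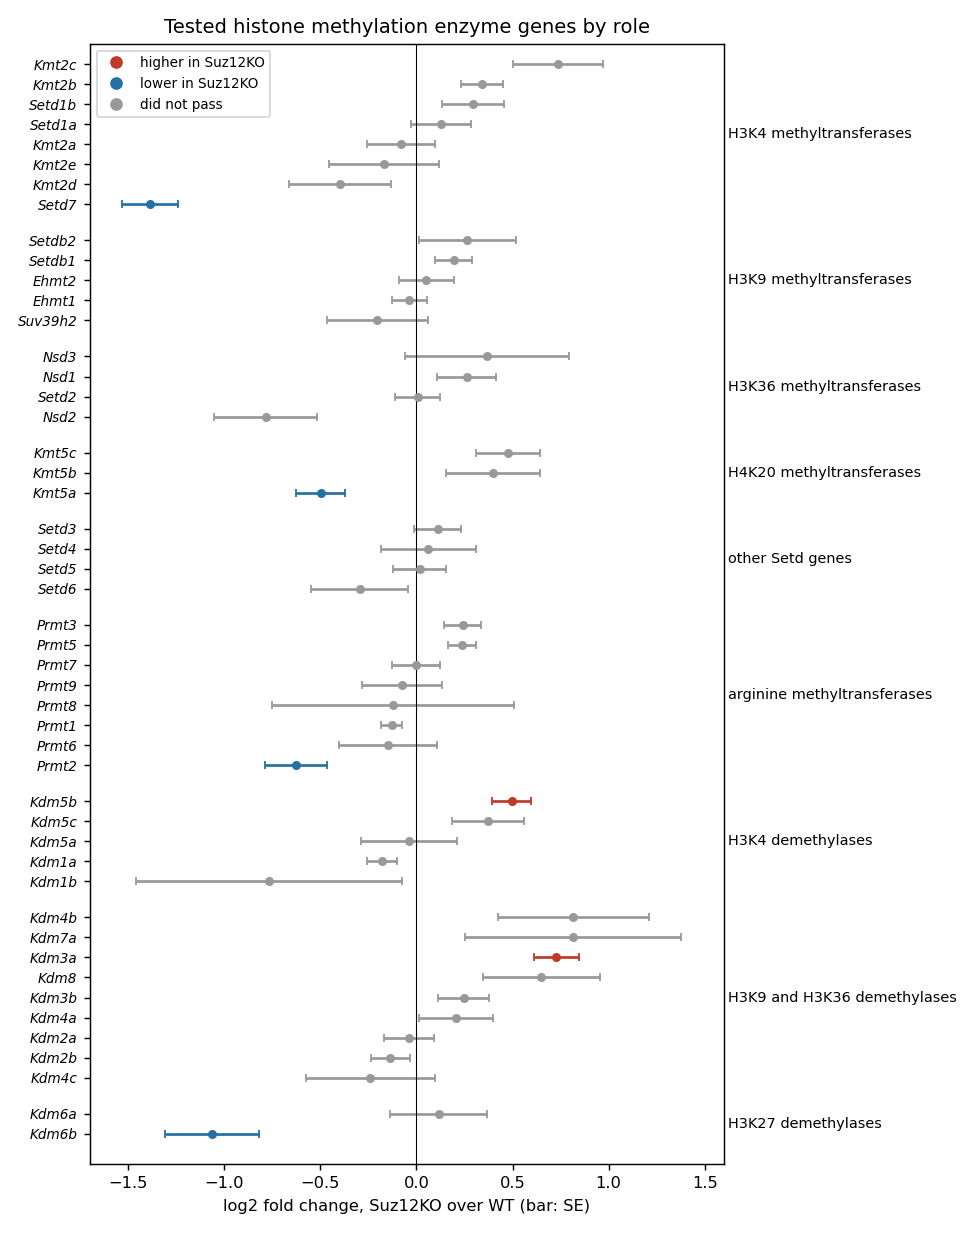
Log2 fold change of Suz12KO over WT (horizontal axis) for the 48 tested genes, grouped by the residue they act on; points are fitted values, bars are standard errors, red marks genes called higher, blue genes called lower and grey genes that did not pass. Setd7 lies furthest to the left at -1.39, and the 2 red points are Kdm5b and Kdm3a.

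Setd7 encodes a SET domain enzyme that can place a single methyl group on H3K4 and that methylates several transcription factors. Its signal was 655 and 625 in Suz12KO, against 1628 and 1774 in WT. Both Suz12KO arrays lay far under both WT arrays, and the arrays of each genotype lay close together. The log2 fold change was -1.39 (SE 0.15, limma adjusted p = 0.000359), or 2.61-fold lower in Suz12KO. A second Setd7 probe set read 189 and 168 in Suz12KO, within the spike range, against 235 and 187 in WT (log2 fold change -0.21), and averaging the probe sets gave -0.80 (adjusted p = 0.0808).

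Kdm3a, also known as Jmjd1a, removes methyl groups from H3K9 and is known in mouse stem cells as a gene bound by the pluripotency factor Oct4. It read 2823 and 3138 in Suz12KO, against 1638 and 1961 in WT, with no overlap between the genotypes. The log2 fold change was 0.73 (SE 0.12, limma adjusted p = 0.00420), and the gene has a single probe set. Its relative Kdm3b, on the same kind of substrate, read 1570 and 1506 in Suz12KO and 1188 and 1408 in WT, a log2 fold change of 0.25 that did not pass (adjusted p = 0.307).

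Kdm5b removes methyl groups from H3K4. Its signal was 4310 and 4412 in Suz12KO, against 2809 and 3396 in WT. The genotypes did not overlap, and the WT arrays lay further apart than the Suz12KO arrays. The log2 fold change was 0.50 (SE 0.10, limma adjusted p = 0.0138). A second Kdm5b probe set, at 1648 and 1718 in Suz12KO against 1173 and 970 in WT, had a log2 fold change of 0.65, and the remaining ones, with 0.88 and 1.23, lay within the spike range in WT. The first of these overlapped between genotypes, and neither passed. The call was lost when the probe sets were averaged (0.81, adjusted p = 0.139) and when arrays were centred on their median (0.33, adjusted p = 0.0956).

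Kdm6b, also known as Jmjd3, removes the H3K27 methylation that PRC2 places. Its brightest probe set read 481 and 805 in Suz12KO, against 1507 and 1154 in WT, a log2 fold change of -1.06 (SE 0.25, limma adjusted p = 0.0246). The genotypes did not overlap, but the arrays of each genotype were wide apart. The suffix of this probe set marks probes that may also hybridise to other sequences. A second one, without such a mark, read 956 and 793 in Suz12KO and 863 and 906 in WT, a log2 fold change of -0.022 (adjusted p = 0.963 when it represented the gene). The remaining one read 72.6 and 117 in Suz12KO, within the spike range, against 161 and 354 in WT. Its log2 fold change of -1.24, without overlap, did not pass when probe sets were tested one by one. The probe sets of Kdm6b therefore disagree. The brightest and this dim one lay lower in Suz12KO, the second lay near 0, and the brightest alone passed.

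Prmt2 is an arginine methyltransferase known as a coactivator of nuclear receptors. It read 869 and 728 in Suz12KO, against 1302 and 1176 in WT, without overlap. The log2 fold change was -0.63 (SE 0.16, limma adjusted p = 0.0389). The other Prmt2 probe set also lay lower, at 432 and 465 in Suz12KO against 1188 and 837 in WT, a log2 fold change of -1.13. The adjusted p of the gene was 0.0553 under quantile normalization and 0.0547 without a filter on dim genes.

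Kmt5a places the single methyl group on H4K20 that is needed in cell division. Its signal was 1458 and 1819 in Suz12KO, against 2343 and 2273 in WT. Both Suz12KO arrays lay lower, with a log2 fold change of -0.50 (SE 0.13, limma adjusted p = 0.0373). A second probe set of similar brightness read 1538 and 1613 in Suz12KO and 1616 and 1778 in WT, a log2 fold change of -0.11 that did not pass. The adjusted p of the gene was 0.0515 under quantile normalization and 0.0550 without a filter on dim genes, and the mean of its probe sets had the opposite sign (0.67). That mean includes 2 dim probe sets, at 54.7 and 107, and 264 and 18.9, in Suz12KO, against 15.5 and 38.0, and 5.04 and 8.86, in WT.

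**Figure D2:**
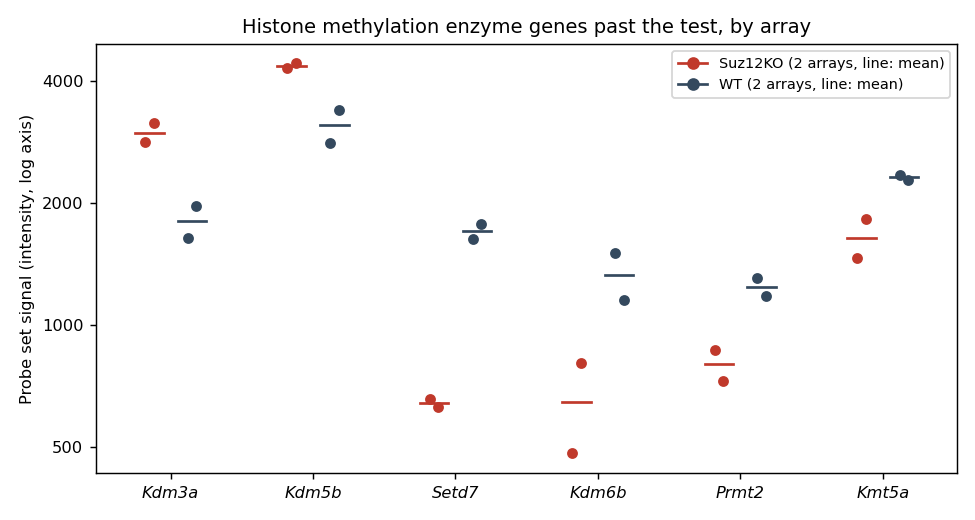
Probe set signal on a log axis for the 6 genes past the test, each with 2 Suz12KO arrays (red, left) and 2 WT arrays (dark, right), with a line at each mean. The genotypes do not overlap in any of the 6, which a call with 2 arrays per genotype makes likely. The arrays of a genotype lie furthest apart for Kdm6b in Suz12KO, at 481 and 805.

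With an array left out, 1 genotype is down to a single array, which is assumed to vary like the pair of the other genotype, so these p-values are weak evidence on stability. Setd7 and Kdm3a passed in all 4 such fits. Setd7 had log2 fold changes of -1.45 to -1.33 (limma adjusted p 0.000461 to 0.00454) and Kdm3a of 0.60 to 0.86 (adjusted p 0.00324 to 0.0195). Kdm5b lost its call without WT replicate 1 (0.36, adjusted p = 0.0765). Kdm6b lost its call without WT replicate 1 (-0.87, adjusted p = 0.127) or Suz12KO replicate 1 (-0.70, adjusted p = 0.0574). Prmt2 kept its call without Suz12KO replicate 1 but not when either WT array or Suz12KO replicate 2 was left out (adjusted p 0.103 to 0.199). Kmt5a kept its call without Suz12KO replicate 2 but not without the other arrays (adjusted p 0.111 to 0.143). Without Suz12KO replicate 2 Nsd2 was called lower and Prmt2 was not. Each of these fits also called fewer genes in total over all genes than the fit with 4 arrays, so a lost call is not particular to the members.

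**Figure D3:**
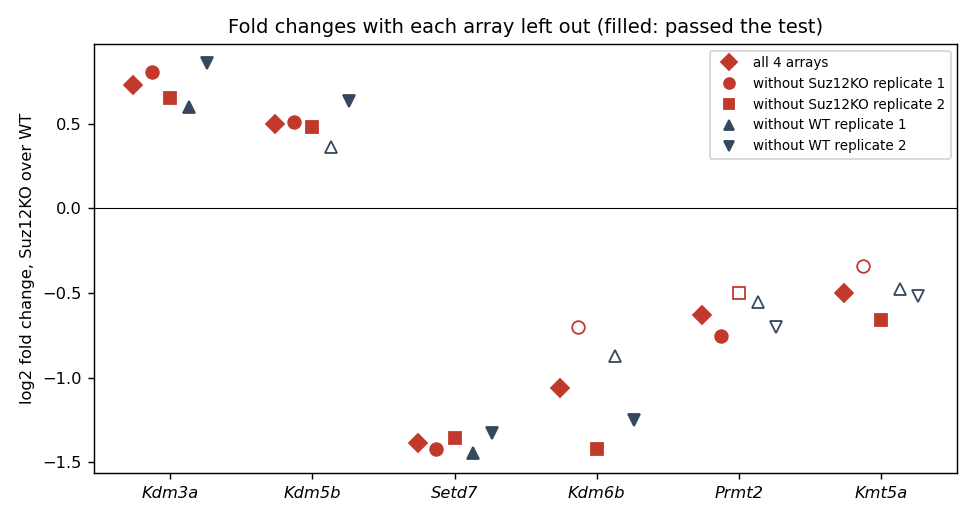
Log2 fold change of Suz12KO over WT for the 6 called genes with all 4 arrays and with each array left out; filled symbols passed the test, open ones did not. Setd7 and Kdm3a are filled throughout, and Kmt5a and Prmt2 are filled in 1 of the 4 left-out settings each.

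The promoters of the called genes other than Kdm6b are shown because PRC2 is known to occupy promoters rich in CpG dinucleotides, and the capitals mark each CpG. Windows run from 250 bases before to 50 bases after the first start listed for the gene in RefSeq's GRCm38.p6 annotation, 5′ to 3′ on the gene's strand. The annotation lists 3 starts for Kdm3a and Kmt5a and 1 for Kdm5b, Setd7 and Prmt2.
Kdm3a (higher, chr6:71632868-71633167, minus strand): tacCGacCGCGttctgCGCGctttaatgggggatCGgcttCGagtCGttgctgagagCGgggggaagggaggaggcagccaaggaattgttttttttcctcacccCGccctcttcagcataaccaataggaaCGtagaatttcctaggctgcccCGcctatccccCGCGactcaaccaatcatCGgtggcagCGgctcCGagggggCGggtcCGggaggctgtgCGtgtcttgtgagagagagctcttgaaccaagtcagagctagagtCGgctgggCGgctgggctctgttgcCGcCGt
Kdm5b (higher, chr1:134559928-134560227, plus strand): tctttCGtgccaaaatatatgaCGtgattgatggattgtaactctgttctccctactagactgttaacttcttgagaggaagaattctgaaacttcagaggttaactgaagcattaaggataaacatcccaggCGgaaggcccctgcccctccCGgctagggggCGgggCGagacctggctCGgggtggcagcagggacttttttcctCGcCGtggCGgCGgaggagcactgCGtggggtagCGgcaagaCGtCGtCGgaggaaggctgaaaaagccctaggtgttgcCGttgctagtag
Setd7 (lower, chr3:51560774-51561073, minus strand): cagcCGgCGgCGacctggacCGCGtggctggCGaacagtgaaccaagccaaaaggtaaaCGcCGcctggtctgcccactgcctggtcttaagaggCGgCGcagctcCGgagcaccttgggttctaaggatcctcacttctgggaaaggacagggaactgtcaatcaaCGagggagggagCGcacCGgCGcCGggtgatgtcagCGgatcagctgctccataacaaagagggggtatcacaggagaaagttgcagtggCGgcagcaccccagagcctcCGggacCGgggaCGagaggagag
Prmt2 (lower, chr10:76237816-76238115, minus strand): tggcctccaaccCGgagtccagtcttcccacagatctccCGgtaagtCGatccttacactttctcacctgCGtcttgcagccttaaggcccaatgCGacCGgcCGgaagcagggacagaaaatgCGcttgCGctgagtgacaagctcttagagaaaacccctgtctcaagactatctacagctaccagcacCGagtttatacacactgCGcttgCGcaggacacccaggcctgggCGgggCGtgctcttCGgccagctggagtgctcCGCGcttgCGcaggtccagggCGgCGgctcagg
Kmt5a (lower, chr5:124439680-124439979, plus strand): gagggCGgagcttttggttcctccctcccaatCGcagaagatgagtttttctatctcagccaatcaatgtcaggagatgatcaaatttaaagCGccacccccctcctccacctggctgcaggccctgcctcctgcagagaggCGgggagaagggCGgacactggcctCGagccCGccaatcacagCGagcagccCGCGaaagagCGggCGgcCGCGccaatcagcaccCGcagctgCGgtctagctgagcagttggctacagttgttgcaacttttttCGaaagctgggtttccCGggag

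These windows hold 24 CpGs in Kdm3a and 17 in Kdm5b, the genes that rose, and 21 in Setd7, 20 in Prmt2 and 18 in Kmt5a, which fell. The other windows of Kdm3a and Kmt5a hold 0 to 40 and 9 to 51. A promoter window was listed for 39 of the 50 members. Of these, 34 (87.2%) were CpG-rich, taken as a GC content over 50% with an observed over expected CpG ratio over 0.6. The same held for 65.2% of 10213 tested genes with a window in the annotation and for 33.9% of all 27025 genes in it. The exceptions were Kdm4c, Kdm5c, Kdm5d, Kdm8 and Setd5. The Kdm4c window used holds 0 CpGs and its other listed window 28. The octamer ATGCAAAT, the recognition sequence of Oct4 and related factors, was searched on both strands and occurred in 0 of 39 member windows and in 1.41% of the windows of tested genes.

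Among the 8 H3K4 methyltransferase genes, Setd7 fell, 0 rose and 7 did not pass, near the 9.97% of all tested genes called in either direction. Kmt2b, which trimethylates H3K4 at bivalent promoters in mouse stem cells, read 2313 and 2086 in Suz12KO, against 1722 and 1740 in WT. Its arrays did not overlap, but the log2 fold change of 0.34 did not pass (SE 0.11, limma adjusted p = 0.0825). Kmt2c, an H3K4 monomethyltransferase of enhancers, read 666 and 614 in Suz12KO and 403 and 353 in WT, a log2 fold change of 0.74 (adjusted p = 0.0881). Its paralog Kmt2d, at 460 and 758 in Suz12KO and 673 and 913 in WT, had a log2 fold change of -0.40, with overlapping arrays. The SET1 enzymes, which do most of the bulk H3K4 trimethylation, had log2 fold changes of 0.13 (Setd1a) and 0.29 (Setd1b). Kmt2a (-0.079) and Kmt2e (-0.17), a member with little or no known methyltransferase activity, had overlapping arrays.

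When each probe set was tested on its own, other Kmt2c probe sets passed. Of 24461 probe sets 2.82% were called higher and 3.99% lower, and among 109 tested probe sets of the members 5 were higher and 3 lower. Of the 5 higher ones, 2 belonged to Kmt2c, 2 to Kdm5b and 1 to Kdm3a. A Kmt2c probe set read 613 and 723 in Suz12KO, against 234 and 227 in WT, a log2 fold change of 1.47 (SE 0.27, limma adjusted p = 0.0124). Another read 480 and 770 in Suz12KO, against 226 and 267 in WT, a log2 fold change of 1.26 (SE 0.32, adjusted p = 0.0479). The fourth, at 287 and 205 in Suz12KO and 157 and 277 in WT, overlapped between genotypes. Kmt2c is singled out here after its values were seen. The 3 lower probe sets were those of Setd7 and Kdm6b and the dimmer one of Prmt2, while those of Kmt5a (adjusted p = 0.0525) and the brighter one of Prmt2 (adjusted p = 0.0521) narrowly missed the threshold.

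**Figure D4:**
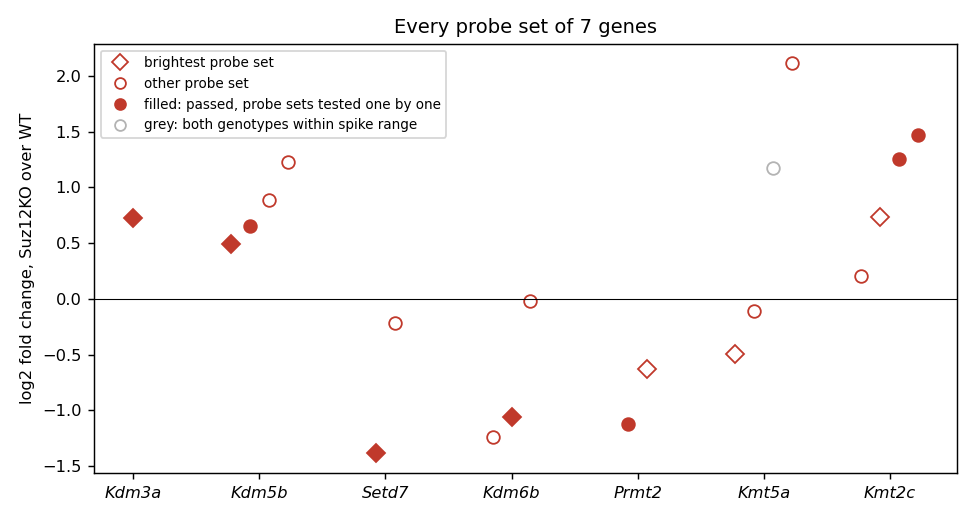
Log2 fold change of Suz12KO over WT for every probe set of the 6 called genes and Kmt2c; diamonds are the brightest probe sets, filled symbols passed when probe sets were tested one by one, and grey outlines lie within the spike range in both genotypes. All 4 Kdm5b probe sets lie above 0, the upper pair of them within the spike range in WT, whereas those of Kdm6b run from -1.24 to -0.022 and those of Kmt5a lie on both sides of 0.

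The H3K9 methyltransferase genes held 0 calls among 5 tested members, beside 9.97% of all tested genes. Their log2 fold changes lay between -0.20 and 0.27. Suv39h1 was listed for this role but is not among the 50 members, so it is not covered. Ehmt2, also known as G9a, read 2539 and 3569 in Suz12KO and 2924 and 2886 in WT. Its partner Ehmt1 read 2550 and 2608 in Suz12KO and 2584 and 2709 in WT. The genotypes overlapped in both (log2 fold changes 0.051 for Ehmt2 and -0.037 for Ehmt1, limma adjusted p = 0.877 and 0.857). Setdb1, which silences endogenous retroviruses in stem cells, read 2714 and 2511 in Suz12KO and 2327 and 2235 in WT, a log2 fold change of 0.19 without overlap that did not pass (adjusted p = 0.268). Setdb2 (0.27) and Suv39h2 (-0.20), a heterochromatin enzyme, did not pass either.

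For H3K36, none of the 4 methyltransferase genes passed, beside 9.97% of all tested genes. Setd2, the main trimethylating enzyme, read 1462 and 1613 in Suz12KO and 1510 and 1548 in WT, a log2 fold change of 0.0060. Nsd1, a dimethylating enzyme, read 1722 and 2237 in Suz12KO and 1467 and 1824 in WT, a log2 fold change of 0.26 with overlap. Nsd2, its relative, read 314 and 510 in Suz12KO, against 698 and 705 in WT. That log2 fold change of -0.78 did not pass (SE 0.27, limma adjusted p = 0.109), but it did after centring (-0.95, adjusted p = 0.0489). It also passed without Suz12KO replicate 2 (-1.12, adjusted p = 0.0247), where 1 Suz12KO array stands against WT and its spread is taken from the WT pair. The other Nsd2 probe sets, each within the spike range in at least 1 genotype, had log2 fold changes from -0.98 to 1.45. Nsd3 had a log2 fold change of 0.37 with overlapping arrays.

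Beside Kmt5a, the H4K20 enzymes Kmt5b and Kmt5c, which add further methyl groups to the mark, did not pass and lay on the other side of 0. Kmt5c read 1282 and 1324 in Suz12KO and 1072 and 810 in WT, a log2 fold change of 0.48 (SE 0.17, limma adjusted p = 0.113). Kmt5b read 532 and 603 in Suz12KO and 475 and 382 in WT, a log2 fold change of 0.40 (adjusted p = 0.373). In all 3 genes the genotypes did not overlap, beside 29.0% of all tested genes with both Suz12KO arrays above WT and 23.9% with both below. The Setd genes outside these groups held 0 calls of 4, beside 9.97% of all tested genes. Setd3 read 1669 and 1649 in Suz12KO and 1665 and 1418 in WT, and Setd5 read 1170 and 1102 in Suz12KO and 1112 and 1134 in WT. Their log2 fold changes were 0.11 for Setd3 and 0.016 for Setd5, beside 0.062 for Setd4 and -0.29 for Setd6.

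Of the 8 arginine methyltransferase genes, Prmt2 fell and 7 did not pass, near the 9.97% of all tested genes called in either direction. Prmt1, the enzyme behind most asymmetric dimethylation of arginine, read 11410 and 11576 in Suz12KO, against 12481 and 12654 in WT. The arrays of each genotype lay close together, and the log2 fold change of -0.13 did not pass (SE 0.055, limma adjusted p = 0.194), though it did after centring (-0.30, adjusted p = 0.0285). Prmt5, the main symmetric dimethylating enzyme and known to be needed in the early mouse embryo, read 5177 and 5127 in Suz12KO, against 4486 and 4263 in WT. Its log2 fold change of 0.24 did not pass (SE 0.073, adjusted p = 0.0785) but did under quantile normalization (0.28, adjusted p = 0.0450). Prmt3, which methylates a ribosomal protein, had a log2 fold change of 0.24 (adjusted p = 0.166), and its arrays did not overlap either. Prmt6 (-0.15), Prmt7 (-0.0029), Prmt9 (-0.075) and Prmt8 (-0.12) had adjusted p values of 0.786 to 0.993. Prmt8, known from the brain, read 91.0 and 228 in Suz12KO and 192 and 133 in WT, near the spike range in every array.

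H3K4 demethylases held a single call, that of Kdm5b, among 5 tested genes, beside 9.97% of all tested genes. Kdm1a, also known as LSD1, read 3792 and 3980 in Suz12KO, against 4286 and 4520 in WT. Its log2 fold change of -0.18 did not pass (SE 0.078, limma adjusted p = 0.207), though it did after centring (-0.35, adjusted p = 0.0401). A second, dimmer Kdm1a probe set read 1682 and 1845 in Suz12KO and 1871 and 1678 in WT. It overlapped between genotypes, with a log2 fold change of -0.0081. Kdm1b, an oocyte H3K4 demethylase, read 66.2 and 149 in Suz12KO, within the spike range, and 269 and 122 in WT. Kdm5a read 440 and 606 in Suz12KO and 487 and 579 in WT, a log2 fold change of -0.040.

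Among 9 tested demethylase genes for H3K9 and H3K36, Kdm3a rose and 8 did not pass, near the 9.97% of all tested genes called in either direction. Kdm2b, which also brings a variant Polycomb repressive complex 1 to CpG islands, read 1983 and 2172 in Suz12KO, against 2259 and 2304 in WT, a log2 fold change of -0.14 (SE 0.10, limma adjusted p = 0.469). Kdm2a, its paralog, had a log2 fold change of -0.039. Of the Kdm4 genes, which remove H3K9 and H3K36 trimethylation, Kdm4a (0.20) and Kdm4b (0.82) had Suz12KO arrays above WT and Kdm4c (-0.24) had overlapping arrays. Kdm4b read 594 and 301 in Suz12KO and 210 and 259 in WT, and its adjusted p was 0.254 (SE 0.39). Kdm8, whose role as a histone demethylase is debated, read 584 and 400 in Suz12KO and 292 and 314 in WT, a log2 fold change of 0.65 (adjusted p = 0.238). Kdm7a, a demethylase of H3K9 and H3K27, read 168 and 452 in Suz12KO and 117 and 193 in WT, with overlap (0.81, adjusted p = 0.430). Kdm4d, which was too dim to test, read 217 and 65.7 in Suz12KO and 18.9 and 164 in WT.

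Members on the sex chromosomes did not pass. Kdm6a, the X-linked H3K27 demethylase also known as Utx, read 568 and 953 in Suz12KO and 719 and 640 in WT, a log2 fold change of 0.12 (SE 0.25, limma adjusted p = 0.836) that was -0.052 after centring. A second Kdm6a probe set read 714 and 731 in Suz12KO and 691 and 626 in WT. The X-linked H3K4 demethylase gene Kdm5c read 743 and 810 in Suz12KO, against 583 and 608 in WT, a log2 fold change of 0.37 without overlap (adjusted p = 0.274). Its Y-linked counterpart Kdm5d, which was too dim to test, read 202 and 66.6 in Suz12KO and 99.4 and 120 in WT, within the spike range in WT. The Y-linked Kdm6a relative Uty read 551 and 282 in Suz12KO and 268 and 427 in WT, and the Y-linked translation factor gene Eif2s3y 812 and 963 in Suz12KO and 691 and 871 in WT. Xist, the RNA that coats the inactive X chromosome, had a log2 fold change of 0.46 (adjusted p = 0.197). The X-linked gene Hprt stood apart from these, at 6994 and 6746 in Suz12KO against 263 and 141 in WT. Its log2 fold change of 5.04 (SE 0.23, limma adjusted p = 4.28e-06) was the highest of all tested genes, and its cause was not tested. Any other difference between the cell lines cannot be told apart from the Suz12 knockout in this design, here or in the other contrasts.

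The SET1 and MLL complexes hold Setd1a, Setd1b or a Kmt2 enzyme with a shared core and with subunits particular to some of the complexes. Of 13 tested subunits of either kind 3 rose, beside 4.48% of all tested genes, and the other 10 did not pass. Their median log2 fold change was 0.22, beside 0.035 over all tested genes. The 3 that rose belong to the shared core. Ash2l read 6156 and 6438 in Suz12KO, against 4491 and 4001 in WT, a log2 fold change of 0.57 (SE 0.080, limma adjusted p = 0.00208). Wdr5, the scaffold of the core, read 4126 and 4088 in Suz12KO, against 2919 and 3073 in WT, a log2 fold change of 0.45 (SE 0.081, adjusted p = 0.00721). Dpy30 read 6352 and 6429 in Suz12KO, against 4903 and 4957 in WT, a log2 fold change of 0.37 (SE 0.067, adjusted p = 0.00758). In these 3 genes the genotypes did not overlap. The fourth core subunit, Rbbp5, read 1280 and 1332 in Suz12KO and 1696 and 1130 in WT, with overlap. After centring Wdr5 (0.29, adjusted p = 0.0857) and Dpy30 (0.21, adjusted p = 0.159) lost their calls, and the mean of its probe sets ended that of Ash2l (0.18, adjusted p = 0.605).

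Among 9 tested partners of demethylases 4 rose and 1 fell, beside 4.48% and 5.50% of all tested genes. Rcor2, a corepressor that joins Kdm1a in stem cells, read 2129 and 2952 in Suz12KO, against 1414 and 1568 in WT, a log2 fold change of 0.75 (SE 0.15, limma adjusted p = 0.0147). Its relative Rcor1 read 609 and 1000 in Suz12KO and 1125 and 1123 in WT, a log2 fold change of -0.52 that did not pass (adjusted p = 0.201). Bcor (0.60, adjusted p = 0.0351) and Skp1 (0.26, adjusted p = 0.0411), which share a complex with Kdm2b, and the deacetylase gene Hdac1 (0.28, adjusted p = 0.0410) also rose, while Glyr1, a partner of Kdm1b, fell by 0.38 on the log2 scale (adjusted p = 0.0363). Bcor, Hdac1 and Skp1 each lost the call whichever array was left out (adjusted p 0.0515 to 0.237) and after centring. Glyr1 kept its call without Suz12KO replicate 2 alone (adjusted p 0.0797 to 0.182 in the other left-out settings), while the call of Rcor2 ended when Suz12KO replicate 2 was left out (0.51, adjusted p = 0.0545).

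Of 11 partners of H3K9 methylation Trim28 rose and 10 did not pass, near the 9.97% of all tested genes called in either direction. Trim28, which recruits Setdb1 to silent elements, read 36729 and 36608 in Suz12KO, against 27496 and 25364 in WT, a log2 fold change of 0.47 (SE 0.052, limma adjusted p = 0.000504). The 5 measured partners of arginine methylation, among them the Prmt5 cofactor Wdr77 (-0.0045), did not pass. Of 3 measured genes listed under methyl donor metabolism 2 fell, beside 5.50% of all tested genes called lower. Ahcy, which clears the product S-adenosylhomocysteine, read 11107 and 10959 in Suz12KO, against 13311 and 13657 in WT, a log2 fold change of -0.29 (SE 0.055, adjusted p = 0.00983). Ahcyl1, named for its likeness to Ahcy, fell by 0.33 on the log2 scale (adjusted p = 0.0431). Its part in methyl donor metabolism was not tested. Without WT replicate 2 the adjusted p of Ahcy was 0.0796, and that of Ahcyl1 was 0.0728 to 0.232 with an array left out.

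Histone methylation enzymes with other names held 1 call among 20 tested genes, beside 9.97% of all tested genes. Jmjd6, a Jumonji protein with debated histone arginine activity, read 1159 and 1480 in Suz12KO, against 1969 and 1881 in WT, a log2 fold change of -0.55 (SE 0.14, limma adjusted p = 0.0381). It passed without Suz12KO replicate 2, but with any other array left out the adjusted p was 0.107 to 0.145. For Ezh2, which encodes the main PRC2 methyltransferase, the log2 fold change was 0.19 (adjusted p = 0.231). Its relative Ezh1 had one of 0.70 (adjusted p = 0.227), which was -1.07 when probe sets with a suffix were left out. Carm1, the arginine methyltransferase counted as Prmt4, had a log2 fold change of -0.14, and Dot1l, the H3K79 methyltransferase, one of -0.10, and neither passed.

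**Figure D5:**
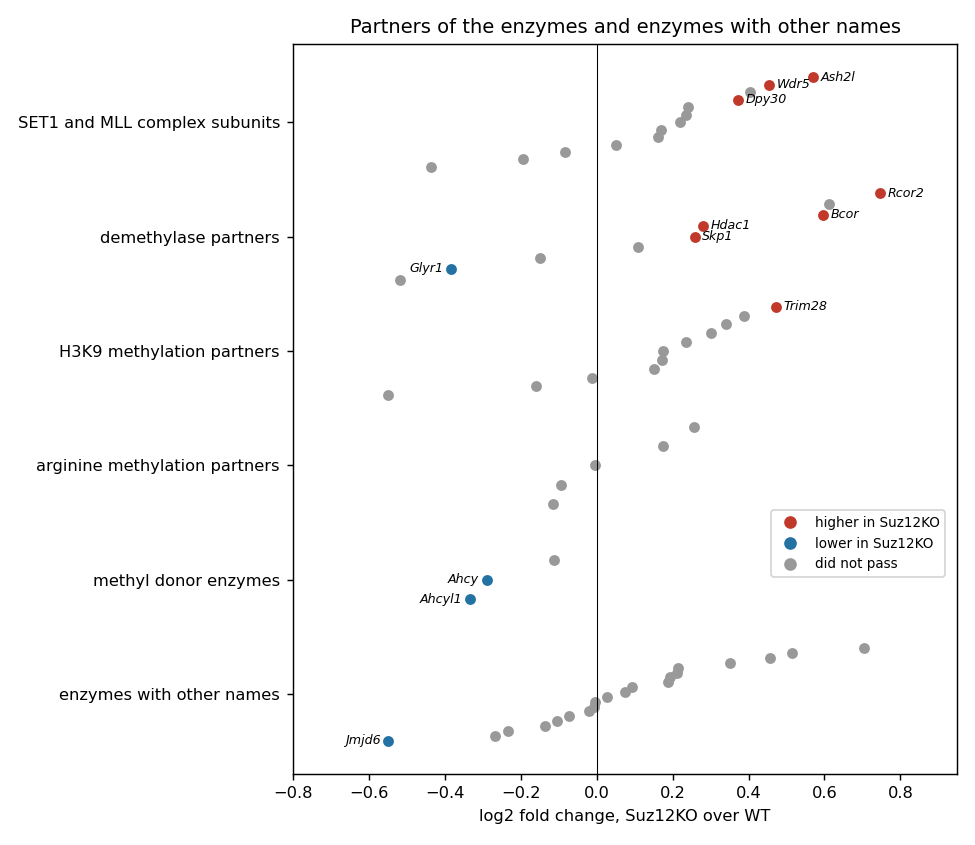
Log2 fold change of Suz12KO over WT for tested partners of the histone methylation enzymes and for enzymes with other names, a row of points for each list, with called genes named (red higher, blue lower, grey did not pass). Ash2l, Wdr5 and Dpy30 lie at 0.57, 0.45 and 0.37 in the SET1 and MLL row, and Jmjd6 is the called gene of the bottom row.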

How the data were processed

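Expression was measured on 4 arrays, 2 of Suz12KO and 2 of WT cells, grouped by the sample titles. The deposited values are probe set intensity on a linear scale, and the sources used here do not name the summarisation software. The mean without the lowest and highest 2% was 500.003 in each array, so the authors had scaled the deposited intensity per array. Gene symbols were read from the platform's annotation, leaving out 932 probe sets with several symbols and 9160 with none here. Values were transformed as log2(signal + 16), which understates changes of dim genes. The brightest probe set represented each gene, and a gene was tested if its mean level reached the 30th percentile. The genotypes were contrasted, Suz12KO over WT, with the trend option of eBayes (limma 3.58.1, R 4.3.3; two-sided, Benjamini-Hochberg over 12735 genes, prior degrees of freedom 7.16). The procedure was tested on simulated data. Figures used matplotlib 3.10.9.

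Every member may be named. Signals are given for members past the test, the 2 brightest of each role and those on the X and Y chromosomes, and other members are given more briefly. Of partner lists, members past the test are named (up to 3 rises and 3 falls); Skp1, Rbbp5, Rcor1, Wdr77, Carm1, Dot1l, Uty, Eif2s3y and the fibroblast markers were named after their values were seen. Members and lists were chosen with earlier results of these data known. Alternatives were the pseudocount (1 or 64), quantile normalization, centring, no filter or one at the 50th percentile, averaged or unsuffixed or all probe sets, eBayes without trend or robust, a replicate block, and each array left out. Sequences are from RefSeq, GRCm38.p6, through gene IDs.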

Additional observations from a re-analysis of the deposited data

How the results depend on the processing

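The counts of members called higher and lower were 2 and 4, and the same genes were called with a pseudocount of 1 or 64, a filter at the 50th percentile or robust estimation. They were 3 and 2 under quantile normalization, 1 and 7 after centring, 2 and 2 without a filter, 1 and 1 with averaged probe sets and 0 and 0 without a trend. Leaving out an array gave 1 to 2 higher and 1 to 4 lower. Same-numbered arrays of the 2 genotypes did not deviate together (correlation 0.015), so the number is taken only as a name. With a replicate block the counts were 5 and 5, adding Kmt2b, Kmt5c, Prmt5 and Nsd2, with 1016 genes called higher and 1082 lower over all genes. On 4 arrays this block leaves little from which to estimate spread. Its smallest limma adjusted p was 6.70e-77, against 2.52e-07 in the main fit, so the added calls are weak evidence. Over all genes, averaged probe sets gave 305 higher and 306 lower, quantile normalization 640 and 625, and no filter 462 and 575 of 18193 genes. The main fit gave 570 and 700, and 0 genes were called without a trend. The median log2 fold change of the members, 0.034, was -0.13 after centring, 0.090 over all probe sets and 0.0089 to 0.11 with an array left out. Of 711 settings compared over single members, 631 kept direction and side of the threshold, 24 lost a call, 9 gained one and 47 changed sign. Kmt5a was the only called member among the sign changes (0.67 with averaged probe sets); the cause of these changes was not tested. After centring, values were -0.12 for Ehmt2, -0.052 for Kdm6a, -0.039 for Setd1a, -0.16 for Setd2, -0.058 for Setd3, -0.11 for Setd4 and -0.15 for Setd5. With averaged probe sets they were -0.12 for Ehmt2, 0.26 for Kdm2a, -0.13 for Kdm4a, 0.019 for Kmt2a, 0.25 for Kmt2e, -0.16 for Kmt5b, 0.20 for Prmt7, 0.61 for Prmt9, -0.15 for Setd3, -0.68 for Setd4 and -0.029 for Setd5. Without probe sets carrying an s, x or a suffix they were 0.034 for Kdm2b, 0.11 for Kmt2e, -0.30 for Setd4, -0.087 for Setdb1 and -1.07 for Ezh1. Quantile normalization gave 0.0032 for Ehmt1, 0.015 for Kdm2a and 0.052 for Prmt7. With an array left out, ranges spanning 0 were -0.19 to 0.30 for Ehmt2, -0.13 to 0.056 for Kdm2a, -0.70 to 0.21 for Kdm4c, -0.26 to 0.18 for Kdm5a, -0.25 to 0.48 for Kdm6a, -0.22 to 0.065 for Kmt2a, -0.50 to 0.15 for Kmt2e, -0.13 to 0.13 for Prmt7, -0.72 to 0.47 for Prmt8, -0.18 to 0.033 for Prmt9, -0.064 to 0.076 for Setd2, -0.0051 to 0.22 for Setd3, -0.033 to 0.16 for Setd4 and -0.026 to 0.059 for Setd5. Alternatives for partner genes were added after seeing the data. With 2 arrays per genotype, fold changes of dim members such as Kdm1b and Prmt8 are poorly measured.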
